A study of Mus musculus with 18 samples.

Results

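The keratin genes described here are the protein-coding genes of mouse chromosomes 11 and 15 whose symbol is Krt followed by a number and an optional letter. The RefSeq annotation of GRCm38.p6 held 53 of them among 21627 protein-coding genes on the autosomes and chromosome X, 27 in a cluster on chromosome 11 and 26 in a cluster on chromosome 15. Their histone marks were read from chromatin immunoprecipitation sequencing of the E14 line of mouse embryonic stem cells, pluripotent cells kept in 2i/LIF medium with light, medium or heavy amino acids. Untreated cells gave 2 libraries each for H3K27me1, H3K27me2, H3K27me3, H3K36me2 and H3K36me3, without a spike-in. A second set of 8 libraries was quantitative, with Drosophila S2 chromatin added at 0.05% of the total. It holds 2 libraries each of H3K27me3 and H3K36me2 from cells given EPZ-6438 at 10 µM for 7 days, a compound that blocks EZH2, the enzyme that methylates H3K27, and 2 each from cells given an equal volume of the solvent DMSO. Nothing in the labels says that replicates came from separate cultures, so the p-values below measure only the spread between these libraries.

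Keratins are the intermediate filament proteins of epithelia. Type I proteins, encoded on chromosome 11 apart from Krt18, pair with type II proteins, encoded on chromosome 15, and each epithelium uses its own pairs. Krt8 and Krt18 form the pair of simple, single-layered epithelia and are the keratins of the first embryonic epithelium, Krt5 and Krt14 mark the basal layer of the epidermis, Krt1 and Krt10 the layers above it, and many other members build the hair shaft and its root sheath. H3K27me3 is laid down by EZH2 in the Polycomb complex PRC2 and marks repressed developmental genes, H3K36me3 follows transcription through gene bodies, and H3K36me2 covers broad regions in and between genes.

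A level is given as the mean number of scaled reads per 1 kb window divided by the mean over all windows of the same library, so that 1 is the genome-wide mean. Start site levels cover 1 kb on either side of the start site, and body levels cover the windows more than 1 kb inside both gene ends. A start site was at hand for 36 of the 53 keratins, and body levels for all 53. The start site of 4 keratins (Krt10, Krt36, Krt14 and Krt78) lay more than 1 kb inside the annotated gene, 8.09 kb for Krt10 and 42.3 kb for Krt78, so that their body windows include it. In units of 1000000 (M), untreated libraries held an estimated 17.3 to 50.9 M reads, the quantitative libraries 16.3 to 84.4 M, except H3K27me3 after the inhibitor, with 0.749 and 1.34 M. In bulk chromatin, fewer cells that carry a mark and less of the mark per cell cannot be told apart. Most pluripotency genes carried H3K36me3 and little H3K27me3: the median H3K36me3 body level over 8 pluripotency genes was 7.78, from 4.68 in Esrrb to 19.8 in Klf2, and Pou5f1, the central pluripotency factor, stood at 8.56. Their start site H3K27me3 was at most 0.336 in 7 of 8 genes, 0.0430 in Pou5f1, but 6.23 in Esrrb. Medians for H3K27me3 at the start sites of other cell types' markers were 8.77 for trophectoderm (5 genes), 8.91 for primitive endoderm (2 genes), 8.65 for feeder fibroblasts (3 genes) and 2.63 for keratinocytes (3 genes). These are the genes with a start site, of 7, 6, 6 and 7 listed. In the same order, median body H3K36me3 was 2.26, 1.20, 1.86 and 1.17 (6, 6, 5 and 5 genes), against 2.01 over all genes. Among the trophectoderm genes it reached 3.76 in Eomes and 5.74 in Tfap2c.

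Krt18 and Krt7 had more CG dinucleotides before the start site than the other keratins, and the letters of a TATA box stood close to the start site of many tissue-specific members. The 250 bases before the start site, from RefSeq on GRCm38.p6, are shown for Krt8 and Krt18, and for the keratins with the highest (Krt7, a keratin of glandular ducts) and the lowest (Krt10) H3K27me3 at the start site. Capitals mark CG dinucleotides and the motif TATAAA, and each sequence runs 5′ to 3′ on the gene's strand and ends at the base before the start site.
Krt8, chr15:102004343-102004592, minus strand: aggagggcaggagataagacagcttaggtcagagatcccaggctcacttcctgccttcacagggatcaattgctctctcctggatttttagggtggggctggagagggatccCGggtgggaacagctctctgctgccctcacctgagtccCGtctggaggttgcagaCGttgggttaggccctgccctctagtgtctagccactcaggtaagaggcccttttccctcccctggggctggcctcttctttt
Krt18, chr15:102027966-102028215, plus strand: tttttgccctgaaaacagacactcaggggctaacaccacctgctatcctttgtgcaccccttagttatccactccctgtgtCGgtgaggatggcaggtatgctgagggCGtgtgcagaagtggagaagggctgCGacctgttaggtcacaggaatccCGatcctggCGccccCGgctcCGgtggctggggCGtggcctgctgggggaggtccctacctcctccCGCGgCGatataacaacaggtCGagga
Krt7, chr15:101412153-101412402, plus strand: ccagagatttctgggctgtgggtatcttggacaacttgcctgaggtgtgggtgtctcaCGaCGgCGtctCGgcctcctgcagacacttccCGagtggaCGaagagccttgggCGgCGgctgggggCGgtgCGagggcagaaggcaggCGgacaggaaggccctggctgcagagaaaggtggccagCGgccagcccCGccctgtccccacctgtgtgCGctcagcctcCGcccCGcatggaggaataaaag
Krt10, chr11:99389365-99389614, minus strand: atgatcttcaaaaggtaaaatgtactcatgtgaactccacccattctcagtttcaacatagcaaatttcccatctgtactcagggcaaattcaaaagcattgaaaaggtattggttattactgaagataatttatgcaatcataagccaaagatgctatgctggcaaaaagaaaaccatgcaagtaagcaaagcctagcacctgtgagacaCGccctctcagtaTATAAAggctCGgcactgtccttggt
Krt7 held 16 CG dinucleotides and 66% G+C, Krt18 12 and 60.4%, Krt8 3 and 58%, and Krt10 2 and 39.6%. Among the 36 keratin promoters only Krt7 and Krt18 had 10 or more, against 51.0% of the 17273 protein-coding promoters with a sequence. The median was 3.5 in keratins and 10 over all genes. TATAAA on either strand stood in 17 of 36 keratin promoters (47.2%) and in 12.5% of all promoters. On the gene's strand with its first base 20 to 40 bases before the start site, where a TATA box sits, it was found in 13 keratins (36.1%) and in 2.87% of all genes. These 13 were 5 of 7 inner root sheath keratins, 4 of 9 hair shaft keratins, 2 of 4 keratins of mucosa and cornea, Krt10 and, of the 5 simple epithelial keratins, Krt20, a keratin of the gut lining. Those exact letters were absent from the 250 bases of Krt8, Krt18 and Krt7. Across the 36 promoters the rank correlation of CG number with H3K27me3 at the start site was 0.42, as a description of neighbouring genes that share libraries and base composition.

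In untreated cells every keratin start site and body measured carried H3K27me3 above the genome-wide mean. Each of the 36 start sites and 53 bodies was above the median of all protein-coding genes. The median keratin start site stood at 6.11, against 0.466 over all genes, and the median body at 5.68, against 0.559. By library the keratin medians were 6.55 and 6.33 at start sites and 5.88 and 5.72 over bodies. The 90th percentile of all genes, 6.40 at start sites and 4.22 over bodies, was passed by 16 of 36 and 38 of 53 keratins.

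The highest start sites were Krt7, with 13.2 and 10.5 in the 2 libraries, and Krt72, an inner root sheath keratin, at 11.4 ± 0.831 (SD, n = 2). Krt14 came next, with 11.9 and 10.5. The lowest were Krt10, with 1.41 and 1.69, and Krt33b, a hair keratin, at 1.94 ± 0.304 (SD, n = 2). These genes are named as the ends of the ranking, so the distance between them is a description. Over bodies Krt14 led with 12.3 and 10.5, followed by Krt15, another basal keratin, at 9.92 ± 2.10 (SD, n = 2), and Krt1, with 8.86 and 9.54. The lowest bodies were Krt222, at 1.55 ± 0.0537 (SD, n = 2), and Krt88, at 2.41 ± 0.287 (SD, n = 2). Krt5, the partner of Krt14, stood at 6.59 and 6.16 over its body. Krt19, a ductal keratin, had 6.64 and 5.91, and Krt20 3.12 and 2.84.

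**Figure D1:**
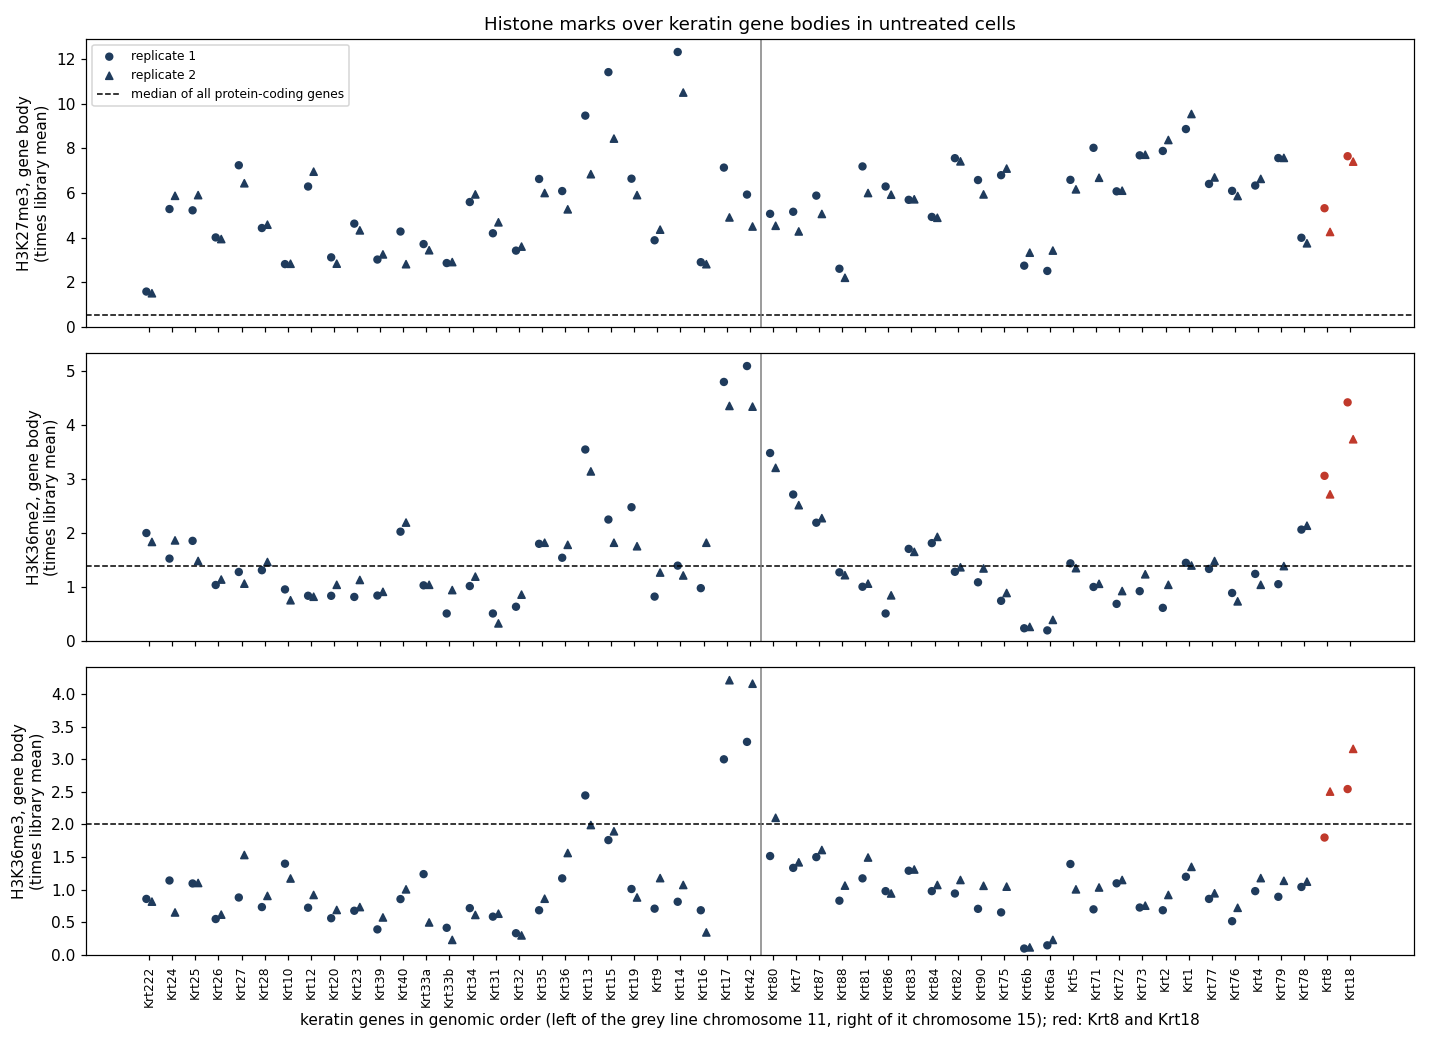
Levels of H3K27me3, H3K36me2 and H3K36me3 over the bodies of 53 keratin genes (horizontal axis, genomic order) in untreated cells, as multiples of the library mean (vertical axes). Circles and triangles are the 2 libraries, red marks Krt8 and Krt18, and the dashed line is the median of all protein-coding genes; every keratin lies above it for H3K27me3 and 48 of 53 lie below it for H3K36me3.

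Sorted by the epithelium where they are used, the classes overlapped in H3K27me3. Median start site levels were 9.83 in the 2 basal keratins, 8.13 in 5 keratins of the suprabasal and palmoplantar epidermis, 7.54 in 7 inner root sheath keratins, 6.35 in 5 simple epithelial keratins, 6.50 in 3 keratins of stressed skin and appendages, 5.29 in 9 hair shaft keratins and 5.13 in 4 of mucosa and cornea. Krt90, in none of these classes, stood at 8.40. The ranges were wide: hair shaft keratins ran from 1.94 to 10.4 and simple epithelial ones from 3.30, in Krt20, to 11.9. Start sites on chromosome 15 had a median of 8.94 (n = 16 genes), those on chromosome 11 one of 5.32 (n = 20 genes). For the 17 keratins without a start site (Krt1, Krt15, Krt16, Krt17, Krt19, Krt222, Krt33a, Krt35, Krt4, Krt6a, Krt6b, Krt80, Krt81, Krt83, Krt86, Krt87 and Krt88), both gene ends were measured instead. The median of the lower end was 4.22 and that of the higher end 6.55. The lowest end, at 0.438, was that of Krt222, whose other end stood at 0.842, both under the genome-wide mean.

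Lower methylation of the same residue was near the genome-wide mean at the median keratin, and below the all-gene median in most keratins. For H3K27me1 10 of 36 start sites and 8 of 53 bodies were above that all-gene median, and for H3K27me2 15 and 15. Median keratin start sites stood at 0.852 for H3K27me1 and 0.847 for H3K27me2, against 0.947 and 0.897 over all genes, and median bodies at 0.916 and 1.13, against 1.28 and 1.27. H3K27me2 was highest at the start sites of Krt13, a keratin of mucosal lining, at 2.34 ± 0.340, and Krt42, a type I keratin, at 2.28 ± 0.112 (SD, n = 2), and lowest at Krt77, 0.387 ± 0.0610, and Krt2, 0.287 ± 0.140, both epidermal keratins. Over bodies Krt42, at 2.21, and Krt17, a keratin of skin appendages, at 2.16, led, and Krt1, at 0.534, and Krt12, the cornea keratin, at 0.351, were last. H3K27me1 kept to a narrow band, at start sites from Krt26 at 0.443 and Krt27 at 0.510 to Krt78 at 1.47 and Krt32 at 1.54, and over bodies from Krt26 at 0.461 and Krt6b at 0.485 to Krt87 at 1.44 and Krt80 at 1.58.

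H3K36me3 over keratin bodies was low. Its median was 0.943, against 2.01 over all genes, and 5 of 53 keratins were above that all-gene median: Krt42, Krt17, Krt18, Krt13 and Krt8. Krt42 stood at 3.71 ± 0.630 and Krt17 at 3.60 ± 0.857 (SD, n = 2), and the highest keratin was thus below the 90th percentile of all genes, 7.10. The lowest were Krt6a, at 0.188 ± 0.0587, and Krt6b, at 0.106 ± 0.0121 (SD, n = 2), wound-induced epidermal keratins that are close copies of each other. They were also the 2 lowest in H3K36me2, and how reads that fit both copies were placed is not given in the sources used here. Their H3K36me3 values rested on 3 and 4 reads in the 2 libraries for Krt6a, and on 2 and 2 for Krt6b. With so few reads the SD can understate the counting error. At start sites the H3K36me3 median was 1.10, against 1.05 over all genes, from Krt77 at 0.470 and Krt34 at 0.486 to Krt13 at 2.20 and Krt42 at 2.45.

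H3K36me2 over keratin bodies had a median of 1.24, close to the 1.38 of all genes, but single keratins ran from Krt6b at 0.247 and Krt6a at 0.292 to Krt17 at 4.57 and Krt42 at 4.71, a level above that of 99.7% of all genes. At start sites the range ran from Krt77, at 0.565, and Krt10, at 0.569, to Krt7, at 3.61, and Krt42, at 4.43. Krt17 and Krt42 are neighbours, 1.85 kb apart, and close the chromosome 11 cluster. The hair shaft keratins had the lowest class median at start sites, 0.773 (n = 9 genes, up to 1.68), and the simple epithelial keratins the highest, 3.26 (n = 5 genes, from 1.53). H3K36me2 and H3K36me3 ranked the 53 bodies alike (Spearman 0.69, 0.59 to 0.76 between single libraries), against 0.40 over all genes. At the 36 start sites the correlation was 0.69, against 0.72 over all genes. This describes neighbouring genes in shared cells and carries no test.

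Krt8 and Krt18 had H3K27me3 within the range of the other keratins and more H3K36me2 and H3K36me3 than most of them. A single gene set against a list within a library has no replicate over genes, so these differences are given for each library, without a test. At the start site H3K27me3 was 7.26 and 5.44 for Krt8 and 8.79 and 8.48 for Krt18. On the log2 scale, Krt8 differed from the median of the other 34 keratins by 0.21 and -0.22 in the 2 libraries, above 19 and 12 of them. Krt18 was higher by 0.49 and 0.42, above 24 and 23. Over the body Krt8 had 5.32 and 4.26, a difference of -0.29 ± 0.20 (log2, SD, n = 2) from the other 51, and Krt18 7.65 and 7.41, a difference of 0.38 ± 0.004. The sign for Krt8 thus changed between libraries at the start site and was negative in both over the body, at -0.15 and -0.43. Krt18 lay above the median in both libraries at the start site and over the body. Against the other keratins of chromosome 15 alone, the start site differences were -0.59 for Krt8 and -0.13 for Krt18.

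H3K36me3 over the body was 1.80 and 2.50 for Krt8 and 2.54 and 3.16 for Krt18. That was higher than the median of the other keratins by 1.17 ± 0.15 for Krt8 and by 1.59 ± 0.03 for Krt18 (log2, SD, n = 2). The Krt18 body held only 2 windows, with 52 and 55 H3K36me3 reads in the 2 libraries. The small SD for this body, here and in H3K27me3, can thus understate the counting error. Krt8 exceeded 48 and 49 of the 51 others, and Krt18 49 in both libraries. Body H3K36me2 was 3.05 and 2.71 for Krt8, higher by 1.20 ± 0.14 and above 47 of 51, and 4.41 and 3.73 for Krt18, higher by 1.70 ± 0.19 and above 49 of 51. At the start sites H3K36me2 was 3.32 and 3.21 for Krt8 and 3.57 and 2.95 for Krt18, and each exceeded 32 of 34 others in both libraries. Against all genes the H3K36me2 of the pair was high too, above 88.2% of bodies for Krt8 and 98.7% for Krt18, and above 93.9% of start sites for either gene. Body H3K36me3 was middling in the genome, above 52.1% of all genes for Krt8 and 61.1% for Krt18. The pair was not alone at the top, where Krt42 and Krt17 exceeded both genes in body H3K36me2 and H3K36me3.

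The pair differed in H3K27me2, with 1.45 and 1.72 at the start site of Krt8, above 30 of 34 others in both libraries, and 0.726 and 0.623 at that of Krt18, above 15 and 4. For H3K27me1 the start site values were 0.832 and 1.03 in Krt8 and 0.734 and 0.604 in Krt18, inside the range of the other keratins. Krt8 ends 0.086 kb from the annotated end of its neighbour Krt78, an epidermal keratin whose listed start site is 42.3 kb further inside, and Krt18 lies 23.9 kb away on its other side.

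**Figure D2:**
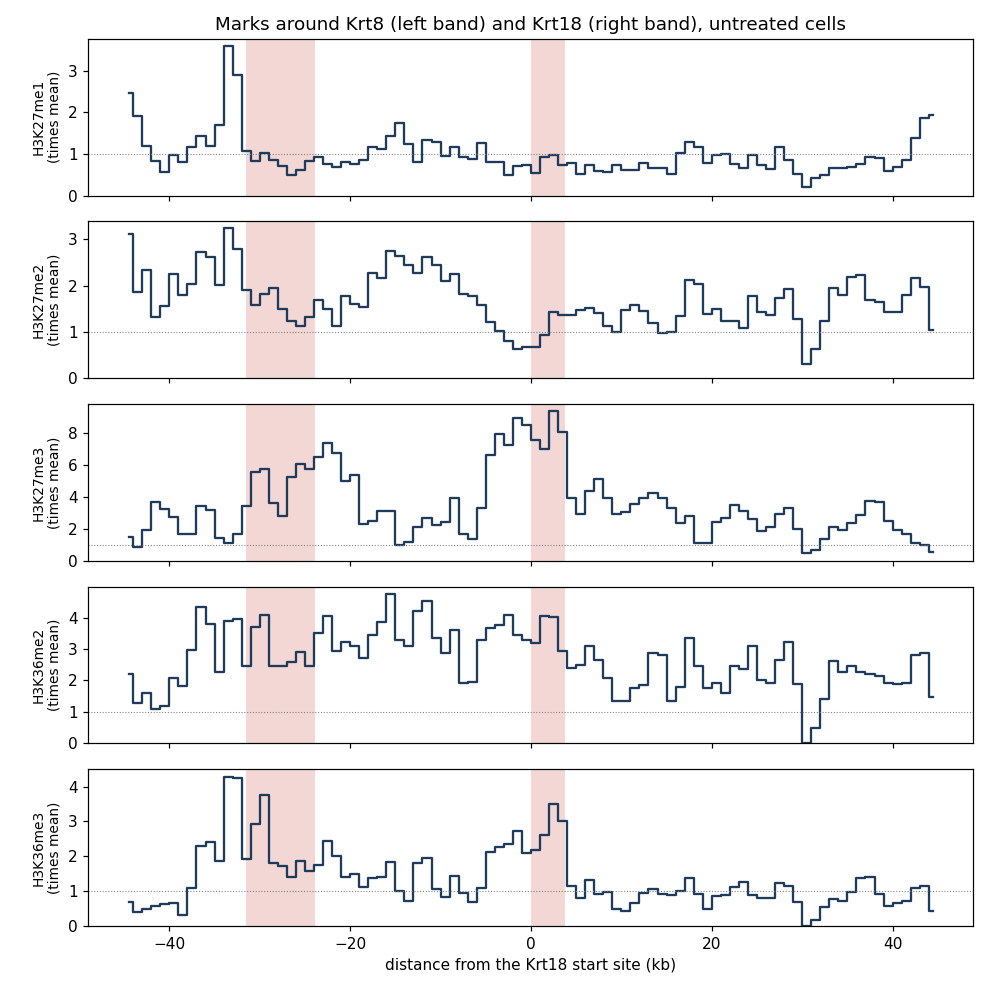
Levels of the 5 marks in 1 kb steps around Krt8 (left band) and Krt18 (right band) in untreated cells, mean of 2 libraries, against distance from the Krt18 start site in kb (negative towards Krt8). The dotted line is the library mean; H3K27me3 is highest over Krt18 and around the Krt8 start site, which faces Krt18, and H3K36me2 stays above the mean from gene to gene.

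In the segment between the genes H3K27me3 was 4.30 and 4.12 and H3K36me2 3.53 and 3.26. The authors' peak lists, which hold peaks found in both untreated replicates, gave the same layout. Krt8 lay under an H3K27me3 peak at chr15:101996001-102013500 (17.5 kb) and Krt18 under another at chr15:102015501-102046000 (30.5 kb). A single H3K36me2 peak at chr15:101988501-102057500 (69 kb) covered both start sites and reached Krt78. An H3K27me2 peak at chr15:102003501-102024500 (21 kb) covered the start site of Krt8 and not that of Krt18.

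Across the family, 36 of 36 start sites lay in H3K27me3 peaks, against 30.6% of all genes with a start site, and 52 of 53 genes were covered by them over at least 50% of their length, against 27.4%. Start sites in peaks numbered 14 of 36 for H3K36me2 (50.0% of all genes), 6 for H3K27me2 (30.3%) and 4 for H3K27me1 (25.6%; Krt32, Krt13, Krt42 and Krt79). The longest H3K27me3 peak in the chromosome 15 cluster, chr15:101703501-101913000 (209.5 kb), held 8 keratins from Krt5 to Krt76, and that in the chromosome 11 cluster, chr11:100037001-100161500 (124.5 kb), 8 from Krt34 to Krt19. The peaks covered 88.6% of the chromosome 15 cluster (chr15:101348315-102032026) and 65.3% of the chromosome 11 cluster (chr11:99232761-100269951).

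**Figure D3:**
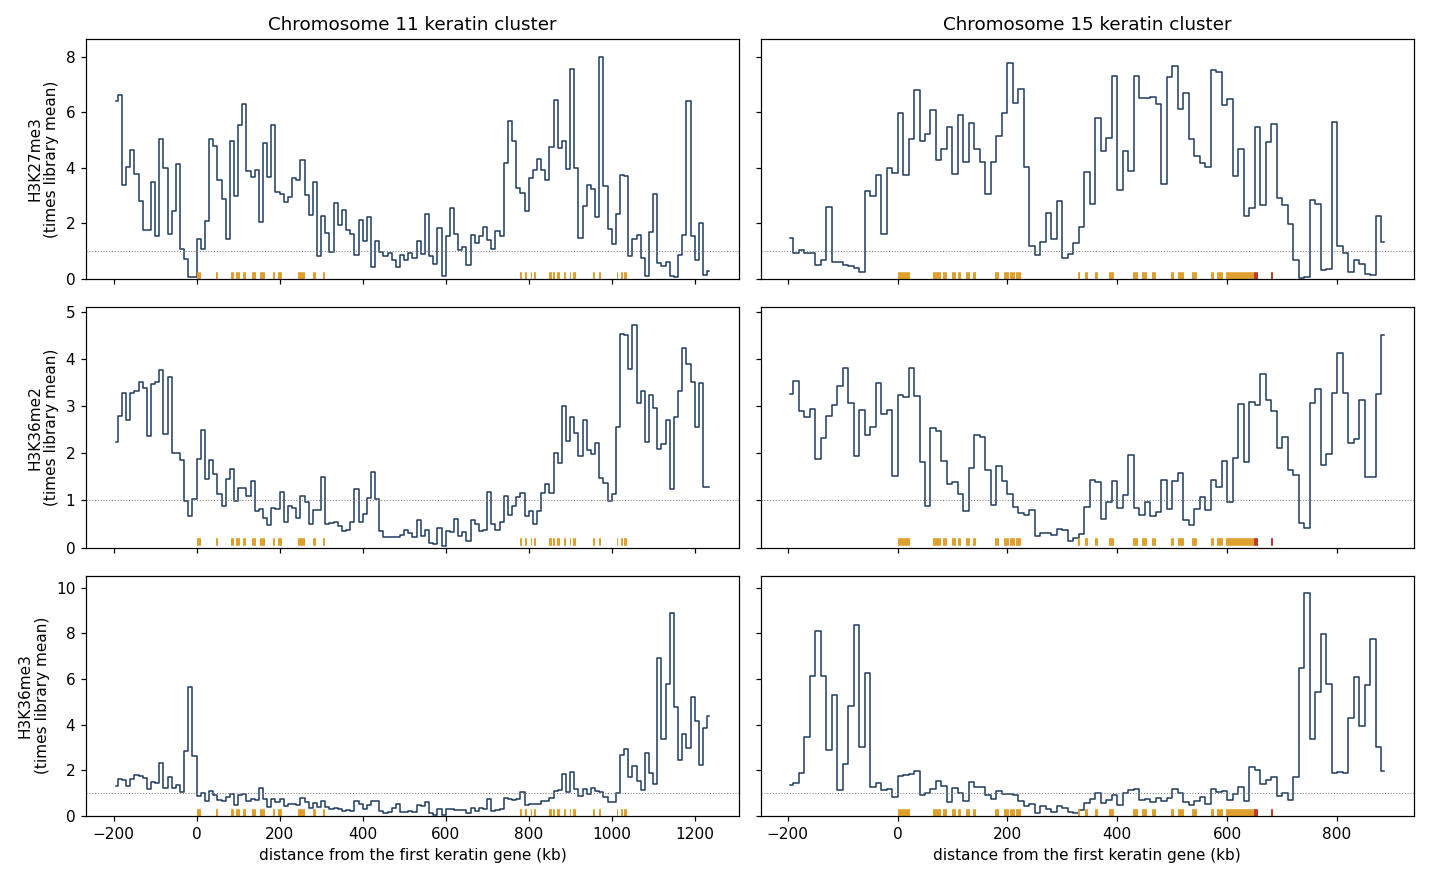
Untreated levels of H3K27me3, H3K36me2 and H3K36me3 in 10 kb steps across both keratin clusters and 200 kb on either side, mean of 2 libraries, against distance from the first keratin gene in kb. Orange bars are keratin genes and red bars Krt8 and Krt18; H3K27me3 is high over the keratin genes and lower in the wide gap inside the chromosome 11 cluster, and H3K36me3 is low inside the clusters and high in stretches of the flanks.

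Mean H3K27me3 over the whole cluster was 2.67 and 2.71 on chromosome 11 and 4.72 and 4.61 on chromosome 15. In the 200 kb flanks it was 3.02 and 2.92 before and 1.26 and 1.26 after the chromosome 11 cluster, and 1.63 and 1.51 before and 1.43 and 1.51 after the chromosome 15 cluster. The chromosome 15 cluster thus stood above both of its flanks in both libraries. That of chromosome 11, averaged with a wide gap that holds no keratin gene, stood above only one. This gap, the 468 kb between Krt40 and Krt33a, holds the genes of keratin-associated proteins, the matrix of hair, and had 1.50 and 1.68. It makes up 468 of the 1037 windows of the chromosome 11 cluster, so the cluster mean is not that of its keratin stretches. H3K36me2 there was 0.444 and 0.562, under the genome-wide mean.

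Genes that work with keratins were less uniform. The 21 keratin-associated protein genes with a start site had a median H3K27me3 of 1.91, and 10 genes of the cornified envelope, the protein shell of dead epidermal cells, 1.23. For 12 regulators of epithelial fate it was 6.98, and 8 of them ran from 4.36 in Elf5 to 13.4 in Cdx2. The other 4 had less H3K27me3 than these 8 and carried H3K36me3 over the body: Elf3 had 0.0588 and a body H3K36me3 of 12.9, Klf4, also a pluripotency factor, 0.106 and 8.45, Grhl3 0.650 and 5.85, and Grhl1 1.91 and 4.46. For the 5 genes of desmosomes and adhesion with a start site the median was 5.01. Jup, a desmosome plaque protein, stood at 0.384 and Dst at 0.454, and the others ran from 5.01 in Dsp to 6.15 in Epcam. The body H3K36me3 of all 15 such genes, with or without a start site, had a median of 3.03, against 0.943 in keratins, and that of Jup was 6.85. For 12 genes with a start site in a list of other intermediate filaments the median H3K27me3 was 4.21. That list also holds Syne1 (0.532), which encodes a nuclear envelope protein and no intermediate filament.

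After EPZ-6438, H3K27me3 fell over every keratin, as over nearly all genes. On the spike-in scale the start site of Krt8 went from 449 and 302 scaled reads per window with DMSO to 0.726 and 0.0495, and that of Krt18 from 576 and 361 to 0.242 and 0.148. No inhibitor value came near a DMSO value. In limma with Benjamini-Hochberg adjustment over all genes, on log2 of scaled reads plus 1, the change was -8.10 (SE 0.38, adjusted p = 1.76e-06) for Krt8 and -8.58 (SE 0.34, adjusted p = 1.57e-06) for Krt18. All 36 start sites and all 53 bodies were called lower, where 99.2% of start sites and 99.9% of bodies over all genes were called, so these counts tell nothing of keratins in particular. The added 1 understates such falls. Without it, levels were a median of 950-fold lower at the 28 start sites with more than 3 inhibitor reads, from 238-fold in Krt10 to 3172-fold in Krt71, and 1008-fold lower over 50 bodies, from 437-fold in Krt2, an epidermal keratin, to 2863-fold in Krt35, a hair keratin. The first inhibitor library had no read at the Krt71 start site or over the Krt35 body, where the second had 5 and 4, and without the first library these folds were 1586 and 1431. The lower ends moved as well: the Krt10 start site had 4 and 1 inhibitor reads and stood 131-fold lower without the second library, and the Krt2 body, with 31 reads in each, stood 752-fold lower without the first library and 308-fold lower without the second. The ends of both ranges thus depend on which inhibitor library is used. The limit on reads also left out the 8 start sites and 3 bodies (Krt16, Krt6a and Krt6b) with the fewest inhibitor reads. Of these, the Krt40 start site and the Krt16 body had none in either library, and stood at least 653-fold and 310-fold lower with a floor of 3 reads per library. At start sites each inhibitor library held between 0 and 18 reads per gene, which sets a wide counting error on each of these folds.

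The spike-in factors multiply each whole library, so the share of the remaining reads was read too. The mean over all windows itself went from 48.7 and 35.7 scaled reads with DMSO to 0.0911 and 0.0668 with the inhibitor. Relative to the library mean, the median keratin start site went from 6.74 with DMSO to 3.10 with the inhibitor, whereas the median of all genes went from 0.659 to 1.78. These are medians of the mean of 2 libraries. By library, the keratin medians were 7.05 and 6.35 with DMSO and 3.98 and 2.22 with the inhibitor. Those of all genes were 0.672 and 0.661, then 1.33 and 1.48, so 1.78 overstates the rise seen in either library. Over bodies the keratins went from 6.14 to 2.76 and all genes from 0.645 to 1.38. By library, the body medians with the inhibitor were 2.66 and 2.47 in keratins and 1.33 and 1.297 in all genes. Keratins thus kept more of the remaining reads than the median gene, but by a smaller margin than before. Both inhibitor libraries were below both DMSO libraries on this scale at 27 of 36 start sites, where 29.9% of all genes were, and over 45 of 53 bodies, where 28.4% were. Limma on this scale called 0 start sites, of keratins or of all genes, with 8 of 36 keratins at an unadjusted p under 0.05 (34.4% of all genes), and 22 of 53 bodies lower, where 9.44% of all genes were called lower and 35.1% higher. At an unadjusted p under 0.05, it had 31 of 53 bodies, against 55.4% of all genes in either direction. Krt2, the one start site with both inhibitor libraries above both DMSO libraries (34.4% of all genes), went from 12.8 ± 0.472 to 16.6 ± 4.65 (SD, n = 2). It was named after its values were seen. For Krt8 the start site went from 9.22 and 8.45 to 7.97 and 0.741, on 6 and 1 reads, and for Krt18 from 11.8 and 10.1 to 2.66 and 2.22, on 2 and 3 reads.

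**Figure D4:**
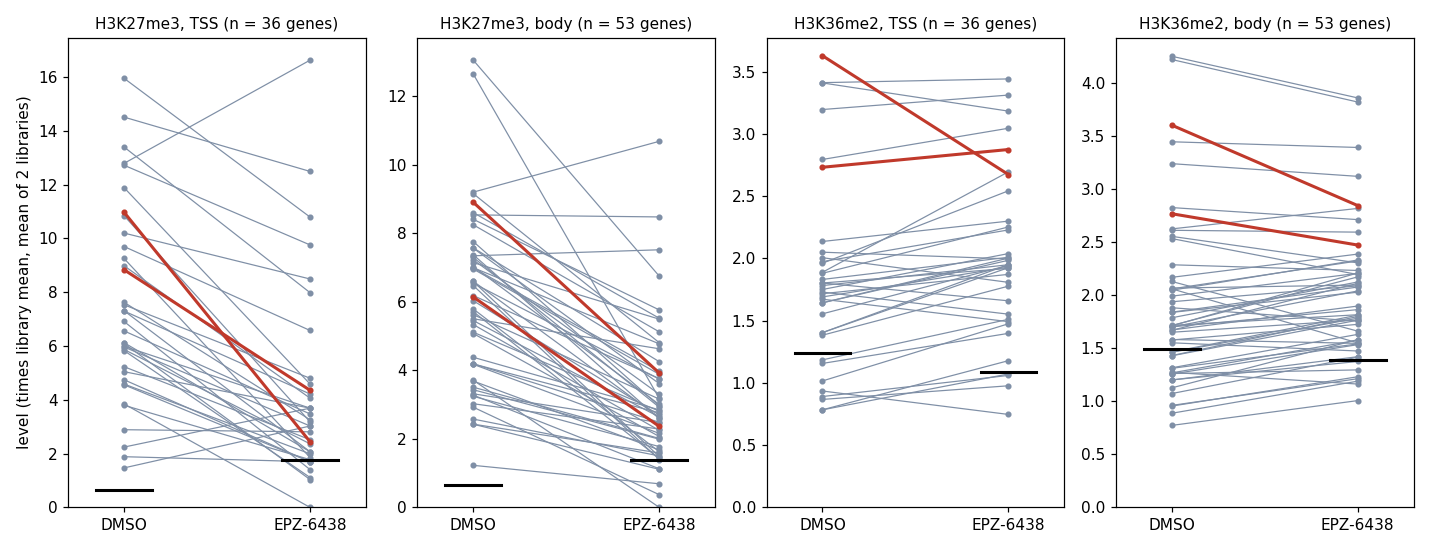
Level of each keratin relative to the library mean with DMSO and with EPZ-6438, mean of 2 libraries, for H3K27me3 and H3K36me2 at start sites (36 genes) and over bodies (53 genes). Red lines are Krt8 and Krt18 and black bars the median of all protein-coding genes; H3K27me3 lines mostly descend towards the all-gene median, and H3K36me2 lines change little.

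Over whole clusters H3K27me3 was 954-fold lower on chromosome 11 and 1014-fold lower on chromosome 15 (exact two-sided permutation test, p = 0.333 for each, the smallest that 2 libraries against 2 can give). On the same spike-in scale the flanks of 200 kb before and after were 782- and 378-fold lower on chromosome 11. Those on chromosome 15 were 394- and 428-fold lower, so a large fall was not particular to the clusters. Relative to the library mean the chromosome 15 cluster went from 5.12 and 5.03 to 2.67 and 2.69 and the chromosome 11 cluster from 2.52 and 2.47 to 1.46 and 1.31. Of the 4 flanks of 200 kb, the one before the chromosome 11 cluster was lower too, from 2.89 and 2.92 to 2.11 and 1.81. The other 3 were higher in both inhibitor libraries, from 1.51 and 1.51 to 2.07 and 2.23 after the chromosome 11 cluster, from 1.83 and 1.81 to 2.81 and 1.99 before the chromosome 15 cluster and from 1.58 and 1.67 to 2.11 and 1.89 after it. Within the last of these, the first 50 kb after Krt18 did not separate the arms, with 1.91 and 2.08 against 1.65 and 1.96. The direction thus differed between the flanks, and each of these contrasts of whole regions is limited to the same smallest p.

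No keratin passed the test for H3K36me2 in the fit without a replicate block. In limma with Benjamini-Hochberg adjustment, 0 of 36 start sites and 0 of 53 bodies were called, where 0.467% and 0.135% of all genes were (0.443% and 0.13% higher, 0.024% and 0.00541% lower). None had an unadjusted p under 0.05 at start sites (2.65% of all genes) or over bodies (1.53%). Limma-voom on the recovered reads called 0 keratins, but only 0 genes at start sites and 1 over bodies in all. With the replicate block, limma called 0 of 36 start sites (0.0599% of all genes) and 11 of 53 bodies, all higher (9.5% of all genes higher). At an unadjusted p under 0.05 the block gave 11 start sites (11.8% of all genes) and 25 bodies (16.7%), but 2 pairs cannot show a pairing. The median change was 0.37 on the log2 scale at start sites, against 0.03 over all genes, and 0.35 over bodies, against 0.07. Its size depended on which libraries were used. The keratin medians were -0.01 at start sites and -0.01 over bodies without the first inhibitor library, and 0.05 and 0.07 without the second DMSO library. They were 0.67 and 0.61 without the first DMSO library, and 0.73 and 0.75 without the second inhibitor library. The start site of Krt8 had 1217 and 745 scaled reads per window with DMSO and 995 and 653 with the inhibitor (-0.24, SE 0.58, adjusted p = 1, limma), and that of Krt18 975 and 522 against 1062 and 707 (0.28, SE 0.58, adjusted p = 1, limma). In both genes the arms overlapped. On this scale both inhibitor libraries were above both DMSO libraries at 3 start sites (Krt33b, Krt5 and Krt9), where 7.36% of all genes were, and over 7 bodies, where 6.53% were, and below them in 0 keratins (2.28% and 1.05%).

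Relative to the library mean, which removes the difference in total between replicates, most keratins had a higher H3K36me2 share after the inhibitor and the Krt8 start site a lower one. The median change was 0.17 on the log2 scale at start sites, against -0.17 over all genes, and 0.14 over bodies, against -0.13. Both inhibitor libraries were above both DMSO libraries at 18 of 36 start sites (11.5% of all genes) and over 29 of 53 bodies (15.9%), and below them at 3 (39.1%; Krt10, Krt14 and Krt8) and over 5 (37.7%; Krt14, Krt16, Krt18, Krt42 and Krt83). Limma on library totals called 0 keratins and 0 genes in either fit, with 6 of 36 start sites (15.4% of all genes) and 10 of 53 bodies (16.4%) at an unadjusted p under 0.05, shares near those of all genes. Krt39, a hair keratin, had the largest gain, from 0.812 and 0.756 to 1.24 and 1.12 at the start site and from 1.11 and 1.15 to 1.64 and 1.52 over the body. The largest loss at a start site was that of Krt8, from 3.76 and 3.49 to 2.46 and 2.88, a change of -0.44, and over a body that of Krt16, a wound-induced keratin, -0.41. The Krt16 body held only 1 window. Over the Krt8 body the arms overlapped. At the Krt18 start site the arms overlapped, 3.01 and 2.45 against 2.63 and 3.12, and over its body the share was lower in both inhibitor libraries, 3.44 and 3.78 against 3.12 and 2.57.

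Keratins with more untreated H3K36me2, H3K36me3 or H3K27me2 over the body tended to have a lower H3K36me2 share after the inhibitor, and those with less a higher one. Across 53 bodies the rank correlation of the relative change with untreated H3K36me2 was -0.71, and -0.45 over all genes. With H3K36me3 it was -0.58 and -0.57 over all genes, with H3K27me2 -0.52 and -0.42, with H3K27me1 -0.22 and -0.48, and with H3K27me3 -0.08 and 0.08. At the 36 start sites H3K36me3 gave -0.56 and H3K36me2 -0.42, against -0.27 and -0.25 over all genes, so the order was not particular to H3K36me2. These points share libraries, neighbouring genes share domains, and no test was made. Keratin bodies also covered a narrower range in the DMSO libraries, from 0.773 to 4.26, than in the untreated libraries, from 0.247 to 4.71, and narrowed further to between 1.01 and 3.86 with the inhibitor; how far background reads enter each library was not tested. By cluster the relative change was 0.13 on chromosome 11 and 0.11 on chromosome 15, against -0.24 between Krt8 and Krt18 (exact two-sided permutation test, p = 0.333 for each). The 4 flanks of 200 kb changed by -0.23 and -0.24 on chromosome 11 and by -0.21 and -0.18 on chromosome 15, and the first 50 kb after Krt18 by -0.01. Without the first DMSO library the change between Krt8 and Krt18 was -0.14, and without the second inhibitor library that of the chromosome 15 cluster was 0.064.

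**Figure D5:**
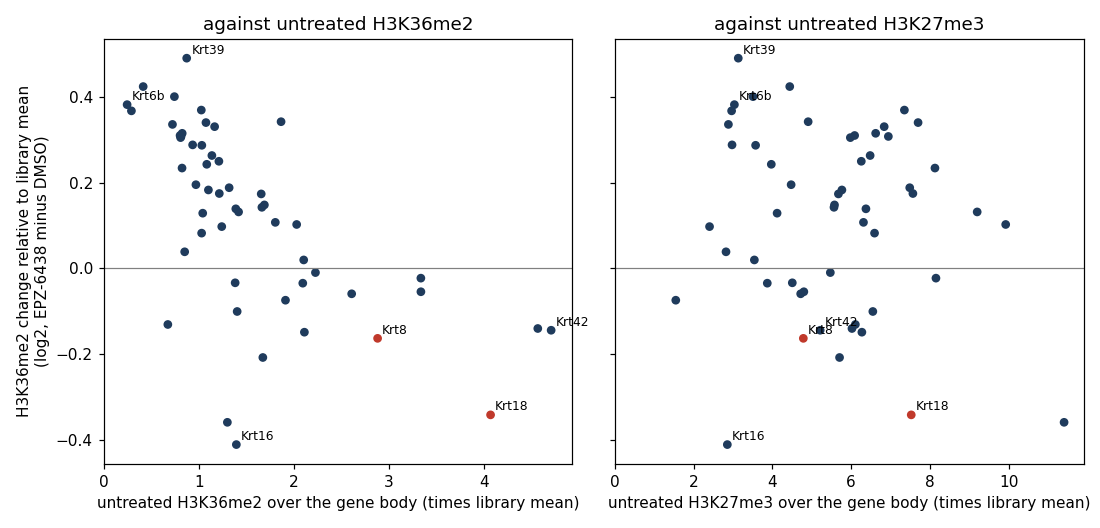
Change in body H3K36me2 relative to the library mean (vertical axis, log2, EPZ-6438 minus DMSO, mean of 2 libraries per arm) of 53 keratins against their untreated level of H3K36me2 (left) and H3K27me3 (right), as multiples of the library mean. Red points are Krt8 and Krt18; keratins with little untreated H3K36me2, such as Krt6b, lie above 0, those with much, such as Krt42 and Krt18, lie below it, and the right panel shows no such order.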

How the data were processed

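Marks were measured by chromatin immunoprecipitation sequencing in 18 libraries, 2 for each of 9 groups taken from the labels. The submitters' processing notes name Trim Galore 0.4.2, Bowtie2 2.2.6.2, SICER and the builds mm10 and dm3, without saying which step used which. The authors deposited log2 values in 1 kb windows every 500 bp, which were found to equal log2 of 1 plus whole reads times 1 factor per library (100% whole at a tolerance of 0.02 reads). The factor gives reads per 1000000 in untreated libraries and, by inference, the authors' spike-in scale in the others. Per the deposited peak lists, each peak has a score, used here only to halve the lists in an alternative.

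Values were returned to reads, and 2633787 non-overlapping windows on 19 autosomes and chromosome X were used. Gene bounds and start sites came from RefSeq GRCm38.p6, the build that mm10 names. A start site was at hand for 17273 and body windows for 18814 of the 21627 genes. Limma 3.58.1 (R 4.3.3) was fitted to log2(scaled reads per window + 1) over all genes with at least 10 reads in 4 libraries and called at an adjusted p under 0.05. The code was tested on simulated data; at the depth of H3K27me3 after the inhibitor the fit on library totals was unreliable there, so counts of groups that do not overlap are given beside it. Named genes were Krt8, Krt18, class representatives and, for each mark and window, the 2 highest and 2 lowest keratins. The members and lists were chosen with earlier results of these data known. Library sizes are estimates from 1.32 windows touched per read. No input library was used here.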

Additional observations from a re-analysis of the deposited data

How the results depend on the processing

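For H3K27me3 after the inhibitor, the counts of genes and of keratins called stayed within 1.5 times in every setting run except library totals. The split moved after median centring, which called 5145 genes higher and 5612 lower at start sites, 33 of 36 keratins among the lower, and 7570 higher and 7742 lower over bodies, 53 of 53 keratins among the lower. On library totals limma called 0 genes and 0 of 36 keratins at start sites, and 7967 genes (6280 higher, 1687 lower) and 22 of 53 keratins, all lower, over bodies, against 14023 and 17861 genes on the spike-in scale. For H3K36me2, 78 genes at start sites (74 higher, 4 lower) and 25 over bodies (24 higher, 1 lower) became 0 and 0 on library totals, 3 and 0 after median centring, 0 and 0 with a pseudocount of 10, 0 and 0 without a filter, 8 and 4 with reads required in all 4 libraries, and 0 and 1 in limma-voom. Start sites ±2 kb gave 29, whole genes 71, and a pseudocount of 0.1 gave 40 over bodies. Leaving out single libraries gave 19 to 118 genes at start sites and 8 to 53 over bodies, with no keratin called. Replicate numbers are shared between arms, but 2 pairs cannot show a pairing: with the replicate block 10 genes at start sites and 1806 over bodies were called, 11 of them keratins, all higher, where 9.5% of all genes were called higher. Within same-numbered pairs the cluster changes in H3K36me2 were 0.45 and 0.22 on chromosome 11 and 0.37 and 0.26 on chromosome 15. Deviations of same-numbered libraries correlated at 0.13 at start sites and 0.56 over bodies for H3K36me2, and at 0.03 and 0.10 for H3K27me3.

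Cluster changes in H3K27me3, -9.90 on chromosome 11 and -9.99 on chromosome 15 (log2), were -0.85 and -0.92 on library totals, and -10.6 on chromosome 11 as a median over windows, where the median window held 0 reads in the first inhibitor library and 1 read in the second, so that this value is no measured fold. Those in H3K36me2, 0.36 and 0.32, ran from -0.11 to 0.72 on chromosome 11 and from -0.10 to 0.68 on chromosome 15 when single libraries were left out, negative without the first inhibitor library.

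Keratin H3K27me3 medians of 2.69 at start sites and 2.54 over bodies (log2 of the multiple of the library mean) were 2.60 with start sites ±2 kb, 3.78 and 3.38 against the all-gene median, and 2.74 and 2.61 in the DMSO libraries. Krt8 against the other keratins in start site H3K27me3 (0.00) was -0.59 within chromosome 15 and 0.47 in the DMSO libraries. For Krt18 (0.45) it was 0.37 against their mean, -0.13 within chromosome 15 and 0.78 in the DMSO libraries. In body H3K36me3, 1.17 for Krt8 was 1.01 against the mean, and 1.59 for Krt18 was 1.46 over whole genes, 1.42 against the mean, 1.49 within chromosome 15 and 1.54 with 0.5 read per window added. Signs also turned for Krt8 in body H3K27me3 (0.016 in the DMSO libraries), median keratin H3K36me3 at start sites (-0.049 at ±2 kb) and median body H3K36me2 (-0.086 against the all-gene median). The upper part of the peaks by score left 1 of 4 start sites in H3K27me1, where the share of all genes went from 25.6% to 22.2%. It left 8 of 14 in H3K36me2 (50.0% to 43.5% of all genes). In H3K27me2 it left 5 of 6 (30.3% to 25.8%) and in H3K27me3 36 of 36 (30.6% to 26.5%). The cause of these shifts was not tested. Leaving out keratins with near-identical proteins was not run. Depth limits H3K27me3 after the inhibitor, with 0 to 18 reads at a start site.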
